A study of Mus musculus with 9 samples.

Results

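Imprinted genes were followed in mouse embryos whose pronuclei had been transferred. The members were the 42 genes of a list of gene symbols, and 34 of them had a row in the deposited table of 19359 genes. Each of the 9 libraries held the polyadenylated RNA of a pool of 3 whole embryos taken 34 h after fertilization, and each of the 3 labelled groups has the libraries A, B and C, 3 per group. LPN embryos had a later pronuclear transfer, EPN embryos an early one, and SPN embryos a sham transfer, which served as the control. The labels describe oocyte collection from gonadotropin-stimulated B6D2F1 females aged 8 to 12 weeks, with the same text for all groups, and give no genetic modification. That text also describes selective enucleation of germinal vesicle oocytes. The timing of the transfers, the sires and the origin of each pool are not given in the sources used here, so p-values measure the spread between these libraries, which may be technical.

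An imprinted gene is transcribed mainly from the copy inherited from one parent. For most imprinted genes the copies are told apart by DNA methylation laid down in the oocyte or in sperm, which must survive the genome-wide demethylation that follows fertilization; a smaller set depends on the histone mark H3K27me3 inherited from the oocyte. Many imprinted genes act in placental and fetal growth, and their RNA in a cleaving embryo can be a remnant of the oocyte's store or a product of the embryo's own genome. The deposited values give total RNA per gene and do not separate the parental copies or these sources, so a level says nothing of which copy was read.

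Libraries held 7611781 to 15559218 reads, and 1 read was worth 0.0643 to 0.131 CPM, the unit of the table (reads scaled to a common library total). On the first principal component of all tested genes (30.5% of the variance), the LPN libraries lay at 36.8 to 77.9, the EPN libraries at -29.4 to 7.26, while SPN B was at -50.6 and SPN C at -84.6. SPN A lay at -1.96, beside the EPN libraries. Values without it are given where leaving it out changed a call, and for Igf2r, Grb10 and Jade1. Only some class medians are given without it, and other medians also moved. Oocyte transcripts (20 of 20 listed in the table, at 1 CPM or more in every library) summed to 3010 to 4910 CPM in LPN, 5610 to 6920 CPM in EPN and 6220 to 9660 CPM in SPN libraries. Genes specific to the 2-cell stage (25 of 26 in the table) summed to 5810 to 9480 CPM in LPN, 5360 to 7390 CPM in EPN and 2860 to 4710 CPM in SPN libraries. Cumulus and granulosa markers (10 of 14 in the table) summed to 27.9 to 39.5 CPM in LPN, 25.1 to 57.8 CPM in EPN and 37.7 to 46.2 CPM in SPN libraries, with Foxl2 at 0 in every library. Sperm markers (6 of 11 in the table) summed to 83.3 to 109 CPM in LPN, 65.4 to 120 CPM in EPN and 114 to 156 CPM in SPN libraries. Blood markers (5 of 10 in the table) summed to 15.6 to 42.1 CPM in LPN, 39.8 to 87.6 CPM in EPN and 49.4 to 104 CPM in SPN libraries. Blastocyst lineage markers (12 of 14 in the table) summed to 91.6 to 151 CPM in LPN, 140 to 215 CPM in EPN and 198 to 284 CPM in SPN libraries. The oocyte, sperm, blood and blastocyst sums were lower, and the 2-cell sum higher, in every LPN library than in any SPN library. Single genes did not all follow the sums. The LPN against SPN log2 change was above 0 for 1 of 20 tested oocyte genes (Zp3), 1 of 3 sperm genes (Ldhc) and 2 of 4 blood genes. It was above 0 for 0 of 11 blastocyst genes and 18 of 23 2-cell genes. The part of these differences in the imprinted gene results was not tested.

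Of the 34 imprinted genes with a row, 29 reached 1 CPM in at least 3 of the 9 libraries and could be tested: 12 maternally and 17 paternally expressed. Another 5 were too low to judge. Ndn, the growth suppressor necdin, had 6 reads in SPN C and none elsewhere. Nap1l5, a nucleosome assembly protein-like gene, had 44 reads in SPN C and none elsewhere, and Rasgrf1, a Ras exchange factor, had 19 reads in SPN A and none elsewhere. Gnas, the locus of the stimulatory G protein alpha subunit, whose parental expression depends on the isoform, held 0 to 13 reads per library. Cd81, a tetraspanin imprinted in placenta, had 7 reads in EPN B, 22 in EPN C, 1 in LPN A and none elsewhere. Where no read was found, up to 3 reads (0.193 to 0.394 CPM, by library) remain possible; this limit is one of counting alone, because PCR copies were not marked with molecular identifiers. Igf2, H19, Peg12, Magel2, Mkrn3, Dlk1, Rtl1 and Slc22a18 were not analysed here.

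Among the 29 tested genes, 8 averaged less than 5 CPM over the 9 libraries and stood near the limit: Peg10, Nnat, Sgce, Dio3, Kcnq1, Ascl2, Sfmbt2 and Slc38a4. The 95% interval of a log2 change reached 1.26 to 1.52 to either side for these 8, against 0.624 to 1.33 for the other 21, so a smaller difference was not detectable at this depth and replication. Per kilobase of exon (GENCODE models of GRCm38), the most abundant member was Mcts2, a retrogene of the translation factor gene Mcts1, at 137 ± 20.7 CPM per kb in LPN, 134 ± 37.2 in EPN and 109 ± 17.2 in SPN embryos (SD, n = 3 each). Phlda2 came next in EPN and SPN, at 36.9 ± 0.924 CPM per kb in LPN, 124 ± 44.2 in EPN and 113 ± 21.9 in SPN embryos. The levels of Mcts2 and Phlda2 overlapped within their spread in EPN and SPN embryos, while in LPN embryos that of Phlda2 was near that of Snrpn, which codes for the SmN spliceosomal protein, at 31.1 CPM per kb and 67.2 ± 21.6 CPM there (SD, n = 3).

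After later transfer, 3 imprinted genes fell against sham: Phlda2, Blcap and Plagl1. The call was an adjusted p under 0.05 in limma, with Benjamini-Hochberg adjustment over all 14876 genes tested. These 3 made up 10.3% of the 29 members, beside 5.54% of all genes that were called lower. No member was called higher, beside 3.26% of all genes. On the recovered reads, edgeR and DESeq2 each called 2 members lower and none higher. Over all genes, edgeR called 3.21% and DESeq2 12.7% in either direction. The difference between these shares was not tested. Without SPN A, 5 members were called lower, beside 18.4% of all genes called in either direction. The direction of 5 other members, none of them called, turned without SPN A: Impact, Nnat, Peg10, Ppp1r9a and Zim1, with log2 changes of -0.153 to 0.157 then. Without adjustment, 8 of the 29 members had a p under 0.05 in limma, all of them lower. Over all genes, 4005 of 14876 had such a p in either direction, a similar share. The groups did not overlap for 6 members (20.7%), beside 27.5% of all genes.

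Phlda2 codes for a small pleckstrin homology-like protein that restrains placental growth, and it is expressed from the maternal copy. It had 41.0, 40.6 and 42.6 CPM in LPN A, B and C, against 89.1, 188 and 138 CPM in EPN A, B and C and 151, 127 and 101.5 CPM in SPN A, B and C. The 3 LPN libraries were nearly equal, and each lay below every EPN and SPN library. The level was 41.4 ± 1.04 CPM in LPN, 139 ± 49.5 CPM in EPN and 126 ± 24.5 CPM in SPN embryos (SD, n = 3 each). Phlda2 was 2.96-fold lower in LPN than in SPN embryos (log2 change -1.57, SE 0.322, 95% interval -2.22 to -0.913, adjusted p = 0.00453, limma). Without SPN A the log2 change was -1.43 (adjusted p = 0.00438, limma), and the call held in all 18 alternative settings tried, with log2 changes of -1.71 to -1.38. In RNA pooled from whole embryos, fewer cells of a type and less RNA per cell cannot be told apart.

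Blcap, the bladder cancer-associated protein gene whose intron holds Nnat in the mouse, is maternally expressed in brain. It had 10.03, 6.17 and 9.13 CPM in LPN A, B and C, against 26.3, 23.7 and 17.9 CPM in EPN A, B and C and 17.4, 38.5 and 56.0 CPM in SPN A, B and C. The LPN libraries lay below every other library, and the SPN libraries spread over a wide range. Blcap was 3.73-fold lower in LPN than in SPN embryos (log2 change -1.90, SE 0.469, adjusted p = 0.0130, limma), at 8.44 ± 2.02 CPM in LPN and 37.3 ± 19.3 CPM in SPN embryos (SD, n = 3 each). Without SPN A the log2 change was -2.35 (adjusted p = 0.00144), and the call was lost without LPN B (adjusted p = 0.0749), without SPN B (0.0563) or without SPN C (0.134).

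Plagl1 codes for a zinc finger transcription factor of growth control and is paternally expressed. It had 2.31, 3.28 and 14.7 CPM in LPN A, B and C, 11.3, 7.27 and 9.36 CPM in EPN A, B and C, and 17.98, 19.05 and 23.2 CPM in SPN A, B and C. All transferred embryos lay below every SPN library, and LPN C lay far above the other two LPN libraries. Plagl1 was 3.45-fold lower in LPN than in SPN embryos (log2 change -1.79, SE 0.571, adjusted p = 0.0457, limma), at 6.78 ± 6.91 CPM in LPN and 20.1 ± 2.75 CPM in SPN embryos (SD, n = 3 each). Its call held in 4 of the 18 alternative settings, with adjusted p from 0.0148 to 0.19, and without LPN C the log2 change was -2.48. Without SPN A it was -1.86 (adjusted p = 0.0451, limma).

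**Figure D1:**
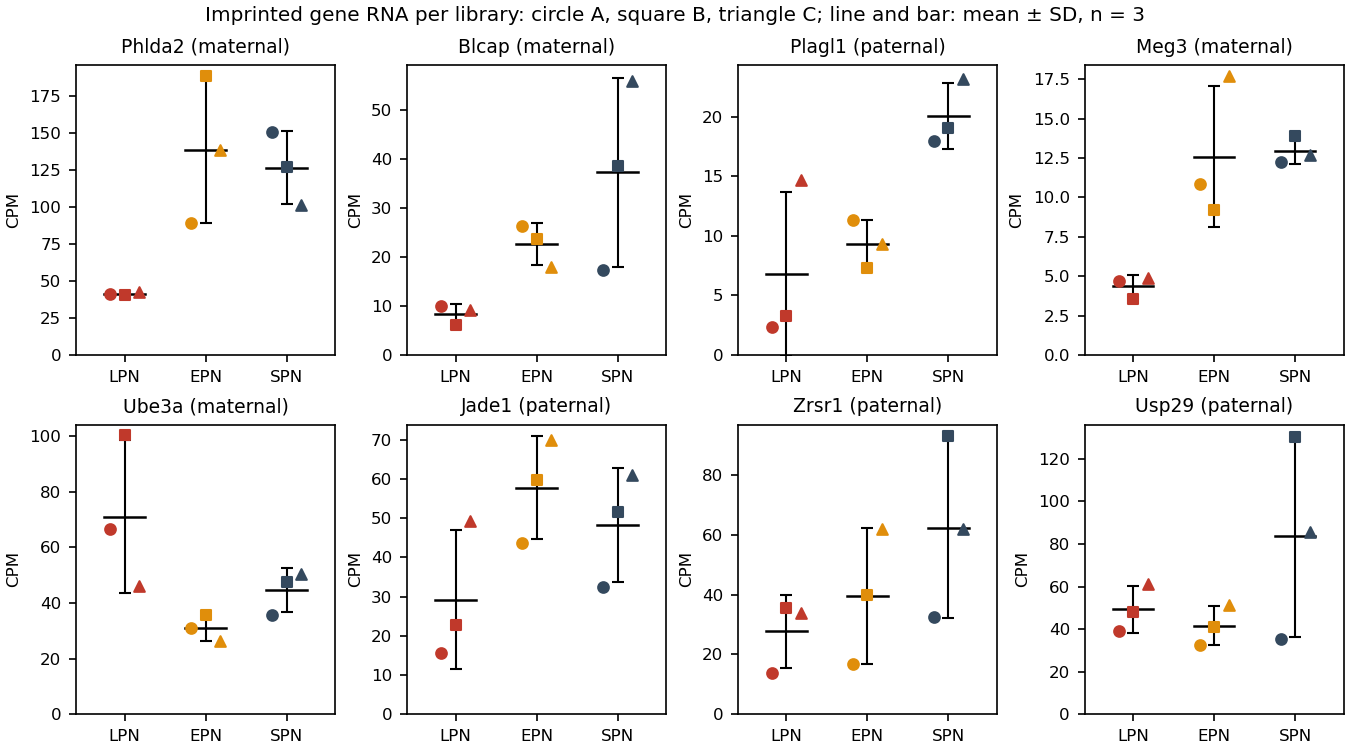
CPM of 8 imprinted genes in each library, by group (LPN, EPN, SPN; circle A, square B, triangle C), with the mean and SD of 3 libraries. The 3 LPN libraries lie together at 40.6 to 42.6 CPM for Phlda2, while for Plagl1 LPN C, at 14.7 CPM, lies apart from LPN A and LPN B.

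The sequences around the start sites of these 3 genes are given because CpG density and the ZFP57 motif bear on imprint methylation; the methylation itself was not measured. They run 5′ to 3′ over 300 bases of RefSeq GRCm38.p6 on the strand of the gene, an older build than that of the deposited table, and capitals mark TGCCGC, or GCGGCA on the other strand, the hexamer bound by the imprint-protecting protein ZFP57 when methylated. The windows are chr7:143502475-143502774 on the minus strand for Phlda2, chr2:157566312-157566611 on the minus strand for Blcap and chr10:13090582-13090881 on the plus strand for Plagl1.
Phlda2: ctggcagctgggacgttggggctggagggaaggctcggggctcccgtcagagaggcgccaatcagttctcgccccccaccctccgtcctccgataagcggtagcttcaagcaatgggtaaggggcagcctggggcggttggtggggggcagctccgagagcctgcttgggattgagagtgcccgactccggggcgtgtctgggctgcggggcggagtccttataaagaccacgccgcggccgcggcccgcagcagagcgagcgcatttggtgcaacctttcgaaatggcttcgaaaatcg
Blcap: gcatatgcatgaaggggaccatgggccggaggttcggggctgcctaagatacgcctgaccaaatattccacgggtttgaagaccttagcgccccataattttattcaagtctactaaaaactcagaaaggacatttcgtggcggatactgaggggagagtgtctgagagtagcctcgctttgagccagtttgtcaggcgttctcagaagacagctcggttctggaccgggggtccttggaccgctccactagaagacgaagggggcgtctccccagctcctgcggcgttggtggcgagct
Plagl1: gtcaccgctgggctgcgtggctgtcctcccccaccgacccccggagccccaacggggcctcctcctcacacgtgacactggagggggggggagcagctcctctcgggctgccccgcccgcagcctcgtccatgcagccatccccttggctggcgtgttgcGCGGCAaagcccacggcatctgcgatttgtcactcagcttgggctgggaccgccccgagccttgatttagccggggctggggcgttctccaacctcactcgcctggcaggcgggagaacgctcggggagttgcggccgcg
The Phlda2 window holds 26 CpG dinucleotides, the Blcap window 17 and the Plagl1 window 26, against a median of 7 over the 32851 windows of the same length in the RefSeq table. The hexamer occurs 1 time in the Plagl1 window and not in the windows of Phlda2 and Blcap, and 11.6% of all windows hold it. The window of Nnat, the gene in the Blcap intron, holds it 1 time. That of Kcnq1ot1, described below, does not hold it. RefSeq windows were found for 24 of the 29 tested members, 40 windows in all, with a median of 17 CpG dinucleotides and the hexamer in 10 of them (25%). Windows of 1 gene can overlap, as at Mest, and the hexamer itself holds a CpG. The difference from the share over all windows was not tested. A match is a description of these letters and not evidence of binding.

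Phlda2 lies in the Kcnq1 domain, a cluster in which the paternally expressed long non-coding RNA Kcnq1ot1 silences its neighbours on the same chromosome. The methylated imprint of the domain lies at the start of Kcnq1ot1. All 5 tested members placed in this domain had a log2 change below 0 in LPN against SPN, with a median of -1.01. Over all genes, 57% were below 0 and the median was -0.168. Phlda2 was the only member of the domain called, and genes of the region outside the member list are not in this count. Kcnq1ot1 itself had 7.20, 4.47 and 17.8 CPM in LPN A, B and C, 5.28, 12.3 and 37.6 CPM in EPN A, B and C, and 12.4, 14.5 and 18.5 CPM in SPN A, B and C, and the groups overlapped (LPN against SPN log2 change -0.76, adjusted p = 0.423, limma). Cdkn1c, the cyclin-dependent kinase inhibitor p57, averaged 4.11 CPM (range 1.86 to 5.86) in LPN, 5.54 CPM (1.17 to 9.61) in EPN and 9.24 CPM (5.30 to 13.6) in SPN embryos. Kcnq1, a potassium channel subunit, averaged 0.543 CPM (0 to 0.922) in LPN, 3.34 CPM (1.48 to 6.29) in EPN and 3.35 CPM (1.86 to 4.46) in SPN embryos, so that LPN lay below both other groups without passing the test (LPN against SPN log2 change -1.50, adjusted p = 0.125, limma). Ascl2, a trophoblast transcription factor, averaged 1.72 CPM (0.838 to 3.15) in LPN, 0.959 CPM (0.312 to 1.59) in EPN and 3.32 CPM (2.65 to 4.08) in SPN embryos. Outside these 5 members, and chosen after its values were seen, Nap1l4 was the next tested gene after Phlda2 in the RefSeq order. It codes for a nucleosome assembly protein and is on the further list of imprinted genes described below. Nap1l4 had 157 ± 57.1 CPM in LPN, 210.0 ± 5.25 CPM in EPN and 132 ± 1.87 CPM in SPN embryos (SD, n = 3 each). Its LPN against SPN log2 change was 0.183. The tested genes after it, Cars and Tnfrsf22, had log2 changes of -0.168 and -1.53, and none of these neighbours was called.

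Meg3, a maternally expressed long non-coding RNA of the Dlk1-Dio3 cluster, whose imprint is methylated in sperm, had 4.69, 3.55 and 4.86 CPM in LPN A, B and C, against 10.8, 9.22 and 17.7 CPM in EPN A, B and C and 12.2, 13.9 and 12.7 CPM in SPN A, B and C. LPN lay below every EPN and SPN library, but the difference did not pass the adjusted threshold against SPN (log2 change -1.39, adjusted p = 0.0921, limma) or against EPN (log2 change -1.30, adjusted p = 0.178). Igf2r, the receptor that carries IGF2 to lysosomes, had 13.3, 20.8 and 33.7 CPM in LPN A, B and C, 31.3, 21.6 and 15.6 CPM in EPN A, B and C, and 13.4, 42.9 and 49.9 CPM in SPN A, B and C. SPN A was as low as the lowest LPN library, while SPN B and SPN C lay above every LPN and EPN library. The LPN against SPN log2 change of Igf2r was -0.52 (adjusted p = 0.500, limma), and without SPN A it was -1.10 (adjusted p = 0.0868). Grb10, an adaptor that dampens insulin and IGF receptor signalling, had 12.3, 8.67 and 17.4 CPM in LPN A, B and C, 30.1, 20.5 and 22.8 CPM in EPN A, B and C, and 4.58, 26.8 and 23.2 CPM in SPN A, B and C. LPN lay below EPN without overlap for Grb10 (log2 change -0.92, adjusted p = 0.342, limma), and SPN A was the lowest library. Against SPN the log2 change of Grb10 was -0.22 in LPN (adjusted p = 0.824, limma); without SPN A it was -0.96 (adjusted p = 0.140), and both other SPN libraries lay above every LPN library.

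Ube3a, a ubiquitin ligase imprinted in neurons, ran the other way. It had 66.6, 100.4 and 46.0 CPM in LPN A, B and C, against 30.8, 35.5 and 26.2 CPM in EPN A, B and C, with 35.5, 47.6 and 50.4 CPM in SPN A, B and C. LPN lay above EPN without overlap, but the difference did not pass the adjusted threshold (log2 change 1.12, adjusted p = 0.0940, limma). Without SPN A in the shared fit, the adjusted p was 0.0481. The library kit does not mark strand, and 27.3% of the Ube3a exon bases lie over genes on the opposite strand, among them the long transcript Snhg14, so their reads cannot be told apart. Commd1, an endosomal sorting protein, had 5.91, 4.34 and 4.52 CPM in LPN A, B and C, 13.6, 8.28 and 10.1 CPM in EPN A, B and C, and 4.08, 3.54 and 13.04 CPM in SPN A, B and C, with LPN below EPN without overlap (log2 change -0.96, adjusted p = 0.378, limma). Zim1, a zinc finger protein, averaged 5.55 CPM (3.42 to 7.46) in LPN, 8.24 CPM (4.61 to 10.4) in EPN and 7.84 CPM (1.59 to 13.1) in SPN embryos. Ppp1r9a, the phosphatase-targeting protein neurabin, averaged 8.95 CPM (4.11 to 12.6) in LPN, 9.30 CPM (7.49 to 11.3) in EPN and 6.49 CPM (2.22 to 9.54) in SPN embryos, and the groups of both genes overlapped.

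Of the 17 paternally expressed genes tested, Plagl1 was the only one called in any comparison. Zrsr1, a retrogene for a splicing factor that lies within Commd1, had 13.7, 35.6 and 33.9 CPM in LPN A, B and C, 16.7, 40.1 and 62.0 CPM in EPN A, B and C, and 32.4, 93.1 and 62.1 CPM in SPN A, B and C. The LPN and SPN libraries of Zrsr1 overlapped through SPN A (log2 change -1.13, adjusted p = 0.106, limma), and without SPN A the log2 change was -1.54 (adjusted p = 0.0310). Usp29, a deubiquitinase of the Peg3 domain, had 39.0, 48.2 and 61.0 CPM in LPN A, B and C, 32.7, 41.0 and 51.2 CPM in EPN A, B and C, and 35.5, 130.2 and 85.8 CPM in SPN A, B and C. With all 9 libraries the log2 change of Usp29 was -0.59 in LPN against SPN (adjusted p = 0.339, limma) and -0.831 in EPN against SPN (adjusted p = 0.429). SPN A lay within the range of the transferred embryos for Usp29. Without SPN A the log2 change was -1.11 in LPN against SPN (adjusted p = 0.0289, limma) and -1.35 in EPN against SPN (adjusted p = 0.0336). Without SPN B these changes were -0.183 (adjusted p = 0.832, limma) and -0.424 (adjusted p = 0.848), so the call depended on which SPN library was left out. Peg3, a zinc finger protein, had 2.38, 6.96 and 9.47 CPM in LPN A, B and C, 12.1, 9.69 and 5.24 CPM in EPN A, B and C, and 8.74, 7.09 and 31.8 CPM in SPN A, B and C, with SPN C apart from the rest.

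Snrpn and Mcts2, the paternally expressed genes of highest level per kilobase, showed no difference that passed the test. Snrpn had 75.8, 42.6 and 83.1 CPM in LPN A, B and C, 60.8, 45.5 and 56.6 CPM in EPN A, B and C, and 87.8, 43.4 and 56.3 CPM in SPN A, B and C. Its LPN against SPN log2 change was 0.11, with a 95% interval of -0.616 to 0.827. Mcts2 had 108, 121 and 145 CPM in LPN A, B and C, 83.3, 140.0 and 144 CPM in EPN A, B and C, and 100.8, 114 and 83.2 CPM in SPN A, B and C. Its log2 change was 0.33, with a 95% interval of -0.298 to 0.950. The parent gene Mcts1 rose in LPN against SPN (41.1 ± 3.39 CPM in LPN and 13.6 ± 4.48 CPM in SPN embryos, SD, n = 3 each, adjusted p = 0.0247, limma), and none of the 813 stretches of 100 bases in the Mcts2 exons occurs in the Mcts1 exons. Exon bases shared with a gene on the same strand, Snurf among them, are part of the 34.1% of Snrpn bases that overlap other genes, and reads of the shared bases cannot be assigned.

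Mest, a hydrolase-fold protein gene, had 11.2, 7.49 and 6.28 CPM in LPN A, B and C, 21.0, 9.06 and 13.3 CPM in EPN A, B and C, and 23.9, 7.89 and 12.0 CPM in SPN A, B and C, and its groups overlapped; 23.1% of its exon bases lie over Copg2 on the opposite strand. Impact, an inhibitor of the GCN2 kinase, averaged 8.17 CPM (5.91 to 12.0) in LPN, 7.50 CPM (2.62 to 16.1) in EPN and 7.92 CPM (6.09 to 9.80) in SPN embryos. The low paternally expressed genes gave scattered values. Sgce, epsilon-sarcoglycan, averaged 0.805 CPM (0 to 1.26) in LPN, 1.80 CPM (0 to 5.39) in EPN and 4.42 CPM (2.80 to 6.66) in SPN embryos, with LPN below SPN without overlap (adjusted p = 0.128, limma). Peg10, a retrotransposon-derived gene needed in placenta, averaged 2.28 CPM (0.321 to 5.26) in LPN embryos, was at 0 in all EPN libraries and averaged 1.15 CPM (0 to 1.95) in SPN embryos. Dio3, the deiodinase that inactivates thyroid hormone, averaged 0.279 CPM (0 to 0.838) in LPN, 2.68 CPM (1.17 to 4.91) in EPN and 3.10 CPM (0 to 7.44) in SPN embryos. Nnat, an endoplasmic reticulum proteolipid, averaged 0.546 CPM (0 to 1.51) in LPN, 2.02 CPM (0.375 to 3.90) in EPN and 0.515 CPM (0 to 0.931) in SPN embryos. None of these passed the test in any comparison.

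The 4 tested genes whose imprint depends on maternal H3K27me3 are all paternally expressed, and none was called. Jade1, a PHD finger protein of a histone acetyltransferase complex, had 15.5, 22.9 and 49.2 CPM in LPN A, B and C, 43.7, 59.7 and 69.8 CPM in EPN A, B and C, and 32.3, 51.5 and 60.9 CPM in SPN A, B and C. LPN A and LPN B lay below every other library and LPN C did not (LPN against SPN log2 change -0.82, adjusted p = 0.186; LPN against EPN -1.09, adjusted p = 0.130, limma). Without SPN A the LPN against SPN change of Jade1 was -1.08 (adjusted p = 0.0723), and both other SPN libraries lay above every LPN library. Gab1, an adaptor of receptor tyrosine kinases, had 8.68, 4.99 and 26.3 CPM in LPN A, B and C, 6.94, 13.9 and 17.3 CPM in EPN A, B and C, and 16.8, 9.66 and 19.5 CPM in SPN A, B and C. Sfmbt2, a Polycomb-group protein, had 0, 2.76 and 5.53 CPM in LPN A, B and C, 4.05, 2.03 and 3.3 CPM in EPN A, B and C, and 5.66, 4.34 and 7.96 CPM in SPN A, B and C. EPN lay below SPN without overlap for Sfmbt2, while the LPN libraries spread from 0 into the SPN range. Slc38a4, an amino acid transporter, averaged 3.33 CPM (1.03 to 5.95) in LPN, 0.495 CPM (0 to 1.48) in EPN and 3.01 CPM (0 to 9.04) in SPN embryos. Of these 4 genes, 3 had a log2 change below 0 in LPN against SPN, with a median of -0.63.

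**Figure D2:**
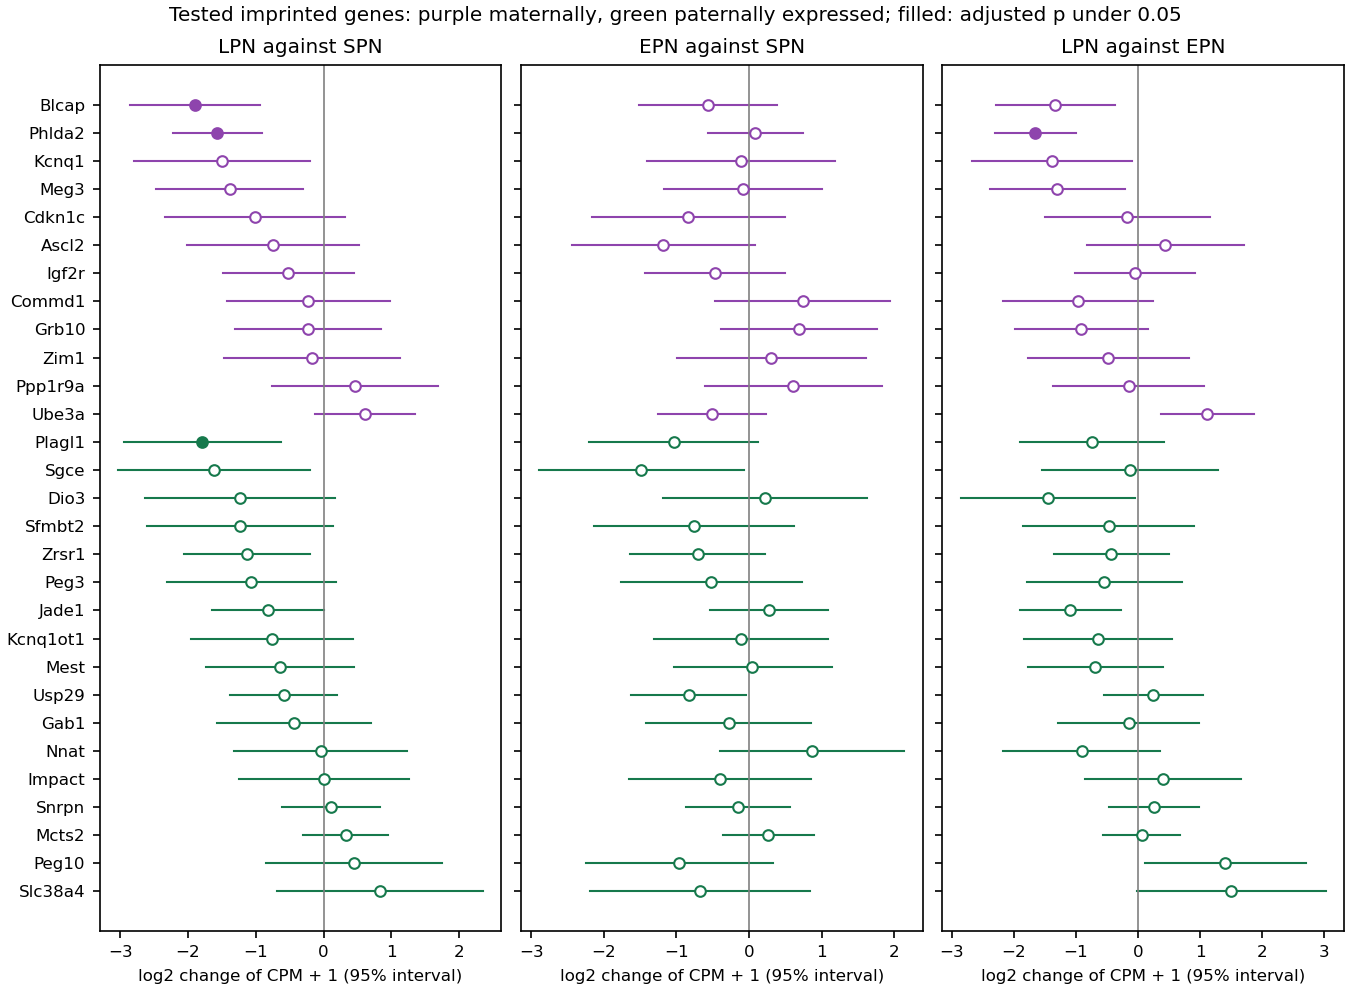
Log2 change of CPM + 1 with its 95% interval for the 29 tested imprinted genes in each of the 3 comparisons (maternally expressed purple, paternally expressed green; filled where the adjusted p was under 0.05). The filled points are Blcap, Phlda2 and Plagl1 in LPN against SPN and Phlda2 in LPN against EPN, and most intervals cross 0.

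Maternally and paternally expressed genes were compared next. In LPN against SPN, 10 of 12 maternally and 12 of 17 paternally expressed genes had a log2 change below 0, with medians of -0.64 in both classes, beside 57% and -0.168 over all genes. Relative to the median of all genes the class medians were -0.47 and -0.47. The classes parted when LPN C was left out: without it the maternal median was -0.679 and the paternal median -1.05, with 14 of 17 paternally expressed genes below 0 and a median of -0.264 over all genes. Without SPN A the maternal median was -1.03 and the paternal median -0.884, beside -0.260 over all genes. Rescaling by median of ratios moved the median of all genes to -0.0201, a shift that leaves 22 of the 29 members below 0. The member list did not mark 7 tested maternally expressed genes as tissue- or isoform-dependent: Phlda2, Cdkn1c, Igf2r, Meg3, Kcnq1, Ascl2 and Zim1. That marking was not checked in these embryos. All 7 were below 0 in LPN against SPN, with a median of -1.01, and 6 of the 7 were below 0 without LPN B, SPN A or SPN C. Of the same 7 genes, 5 were below 0 in EPN against SPN (median -0.11) and 6 in LPN against EPN (median -0.48), with 3 of 7 in EPN against SPN by edgeR and DESeq2 and 4 of 7 in LPN against EPN without LPN A or EPN A. In EPN against SPN, 7 of 12 maternally expressed genes (median -0.10) and 12 of 17 paternally expressed genes (median -0.40) were below 0, beside 54.5% and -0.0702 over all genes; the maternal median turned to 0.06 with edgeR and DESeq2 and to 0.00454 without EPN A, and was -0.254 without SPN A, -0.288 without EPN C and -0.0351 without EPN B. The paternal median was -0.246 without EPN A and -0.194 without SPN C. In LPN against EPN, 10 of 12 maternally expressed genes (median -0.70) and 11 of 17 paternally expressed genes (median -0.43) were below 0, beside 56.7% and -0.137 over all genes. The paternal median there was -0.0165 without LPN A, -0.0336 without EPN C and -0.254 without LPN B, beside -0.109, -0.161 and -0.0659 over all genes, and 7 of the 12 maternally expressed genes were below 0 without LPN A. The comparisons share libraries and so do not count separately.

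Within libraries the classes did not separate by group. The mean log2(CPM + 1) of the 12 maternally expressed genes minus that of the 17 paternally expressed genes was 0.449, 0.0892 and -0.404 in LPN A, B and C, 0.650, 0.0945 and 0.503 in EPN A, B and C, and -0.0711, 0.136 and 0.412 in SPN A, B and C. These ranges overlap, and LPN C stands lowest. The maternal mean was 3.06 to 3.32 in LPN, 3.46 to 3.93 in EPN and 3.34 to 4.30 in SPN libraries, and the paternal mean 2.66 to 3.72 in LPN, 3.28 to 3.37 in EPN and 3.41 to 3.89 in SPN libraries. The maternal mean of every LPN library lay below that of every EPN and SPN library. The gap was narrow, with LPN C at 3.319 and SPN A at 3.338. The paternal mean of LPN C lay within the SPN range. Over all genes the median log2 change was also below 0 in LPN against SPN, at -0.168.

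**Figure D3:**
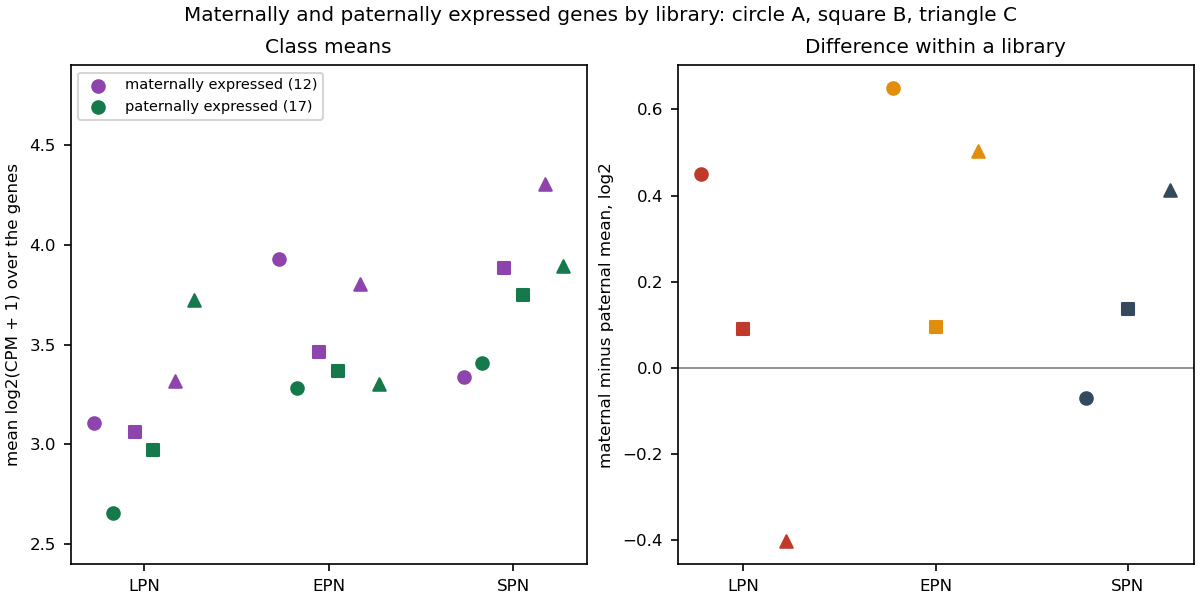
Mean log2(CPM + 1) of the 12 maternally and 17 paternally expressed genes in each library (left) and their difference within the library (right), by group (circle A, square B, triangle C). The difference runs from -0.404 to 0.449 in LPN, 0.0945 to 0.650 in EPN and -0.0711 to 0.412 in SPN libraries, so the groups overlap.

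After early transfer, no imprinted gene was called against sham by limma, edgeR or DESeq2. Over all genes, 0.0739% were called higher and 0.0336% lower. At an unadjusted p under 0.05 there were 2 members, Sgce and Usp29, both lower, beside 1643 of all genes. The groups did not overlap for 4 members, Ascl2, Plagl1, Ube3a and Sfmbt2 (13.8%), beside 14.6% of all genes. For Phlda2 the log2 change was 0.09, with a 95% interval of -0.569 to 0.742, and for Plagl1 it was -1.04 (adjusted p = 0.509, limma).

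Phlda2 was also the only imprinted gene that limma called between later and early transfer. It was 3.15-fold lower in LPN than in EPN embryos (log2 change -1.65, 95% interval -2.31 to -0.999, adjusted p = 0.0149, limma), the 1 member called lower (3.45%), beside 0.840% of all genes. No member was called higher, beside 0.692% of all genes. The Phlda2 call was lost with edgeR (adjusted p = 0.0685), without a filter on low values (0.0724) and without LPN A (0.0634), LPN B (0.11), EPN B (0.0559) or EPN C (0.0853). DESeq2 called Phlda2 and Blcap lower and Ube3a higher. The groups did not overlap for 9 members (31%), beside 26.6% of all genes.

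**Figure D4:**
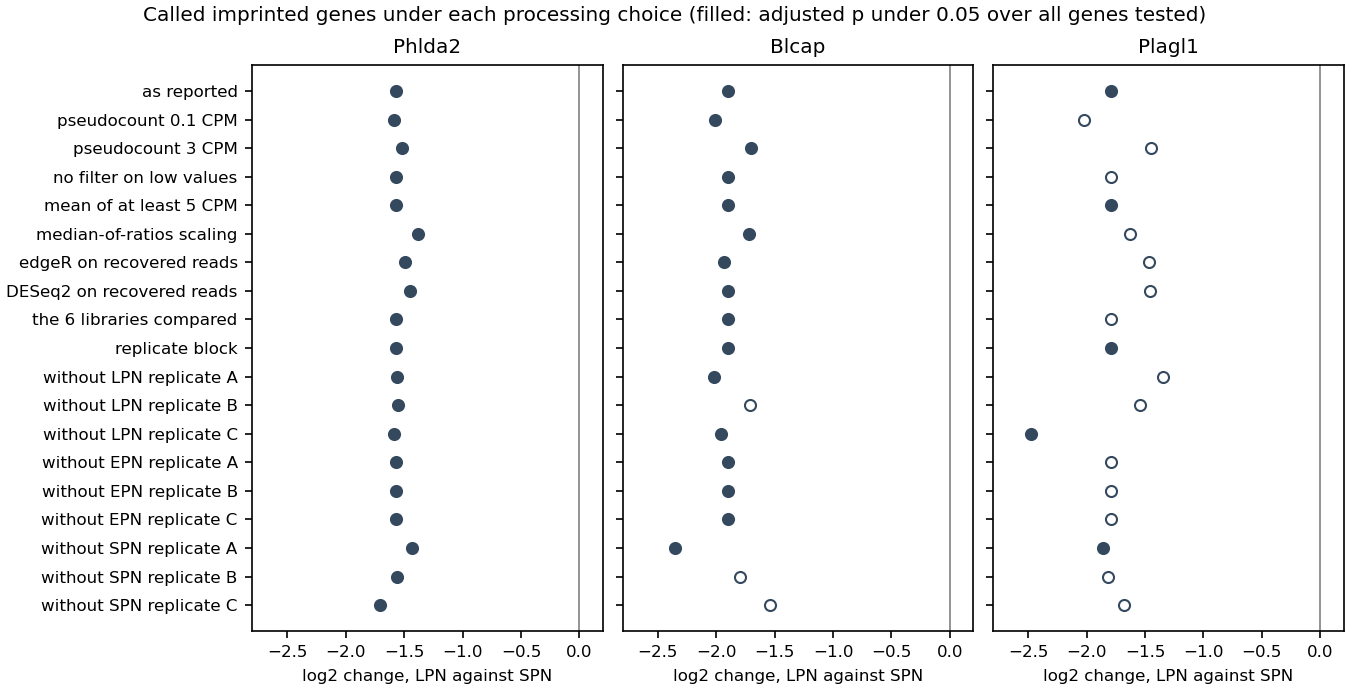
Log2 change in LPN against SPN of Phlda2, Blcap and Plagl1 as reported and under each of 18 alternative settings (filled where the adjusted p was under 0.05). Phlda2 stays filled throughout, at -1.71 to -1.38, while Blcap is open in 3 settings and Plagl1 in 14.

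Genes that protect or erase imprints were measured in the same libraries. Of 27 such genes, all tested, 3 fell (11.1%) and none rose in LPN against SPN, beside 5.54% of all genes called lower and 3.26% called higher, and the difference from these shares was not tested. None was called in EPN against SPN or LPN against EPN. Kdm1b, the histone demethylase needed to set maternal imprints in the oocyte, had 20.7 ± 6.29 CPM in LPN and 62.4 ± 16.0 CPM in SPN embryos (adjusted p = 0.0116, limma). Tet3, the dioxygenase that oxidises methylcytosine in the zygote, had 24.8 ± 5.56 CPM in LPN and 70.7 ± 32.7 CPM in SPN embryos (adjusted p = 0.0262). Nlrp5, a maternal-effect gene that the list of oocyte transcripts also holds, had 72.7 ± 35.7 CPM in LPN and 139 ± 30.5 CPM in SPN embryos (SD, n = 3 each; adjusted p = 0.0494). The median log2 change of the 27 was -0.22, beside -0.168 over all genes. Zfp57, which holds imprint methylation in place, had 91.9 ± 25.8 CPM in LPN, 139 ± 22.4 CPM in EPN and 89.6 ± 35.9 CPM in SPN embryos, and was not called.

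Of 14 tested genes that write, read or erase H3K27me3 or the related histone H2A mark, 1 rose and 1 fell in LPN against SPN (7.14% each), beside 3.26% of all genes called higher and 5.54% called lower. Pcgf1, a Polycomb ring finger protein, had 466 ± 30.9 CPM in LPN and 246 ± 89.2 CPM in SPN embryos (adjusted p = 0.0309, limma). Kdm6b, an H3K27 demethylase, had 5.01 ± 3.50 CPM in LPN and 20.8 ± 8.66 CPM in SPN embryos (SD, n = 3 each; adjusted p = 0.0282). None was called in EPN against SPN or LPN against EPN. A further list of 42 imprinted genes outside the 42 described had 25 members tested, with 1 called lower (4%, beside 5.54% of all genes), Ampd3, an AMP deaminase, at 7.01 ± 1.22 CPM in LPN and 30.1 ± 7.53 CPM in SPN embryos (adjusted p = 0.0116). Of these 25 genes 7 had a log2 change above 0 in LPN against SPN, with a median of -0.73, beside -0.168 over all genes, and none was called in the other comparisons.

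The genes whose levels ran most like those of the called members over the 9 libraries were found by Pearson's r of log2(CPM + 1), as a description. For Phlda2 they were Cggbp1, Rac3 and Cpb2, with r of 0.937, 0.936 and 0.928. For Plagl1 they were Cdk20, Dvl3 and Spns1, with r of 0.979, 0.966 and 0.955. For Blcap they were Slc25a15, Tcf7 and Usp46, with r of 0.990, 0.989 and 0.987. Among themselves the called members had r of 0.526 for Phlda2 and Plagl1, 0.689 for Phlda2 and Blcap and 0.703 for Plagl1 and Blcap. The genes named before were picked for the highest r, so the r of these pairs cannot be set against theirs. The libraries share group and depth, so these values say nothing of shared control.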

How the data were processed

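The submitters' processing notes name the assembly GRCm39 and the tools HISAT2 2.2.1, Trim Galore 0.6.7, edgeR and R 3.3.3; the read counter and annotation are not given in the sources used here. Per the labels, cDNA came from the Smart-seq2 v4 kit and libraries from Nextera XT. The authors deposited CPM, reads scaled to a common library total, for 9 libraries; 100% of values were whole multiples of 1 read within 0.01 reads, so reads were recovered.

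The 14876 genes that reached 1 CPM in 3 or more libraries were tested on log2(CPM + 1) with limma 3.58.1 in R 4.3.3 (mean-variance trend, 6 residual and 25.9 prior degrees of freedom). 1 model over the 9 libraries gave 3 two-sided contrasts, adjusted by Benjamini-Hochberg within each. The pseudocount of 1 understates changes of low genes, and every fold change carries it. Each ± is the SD of 3 libraries. The scripts were tested on simulated data.

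Per-library values are given for called members, for members with non-overlapping groups and a mean of 5 CPM or more in a group, and for members averaging 10 CPM or more. Alternatives were another pseudocount, filter or scaling, edgeR 4.0.16 and DESeq2 1.42.0 on the recovered reads, the 6 libraries compared, a replicate block, and leaving out each library. The members and lists were chosen with earlier results of these data known. Promoter windows and exon models come from GRCm38, and the gene order also comes from an older build than that of the deposited table. The CPM per kb, the exon overlaps and the neighbours named rest on these older builds.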

Additional observations from a re-analysis of the deposited data

Results flagged for a closer look

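Phlda2 differed between the transfer times by the test of the difference itself: its log2 change in LPN against SPN minus that in EPN against SPN was -1.65 (adjusted p = 0.0149, limma), and all 3 LPN libraries lay below all 3 EPN libraries. SPN cancels in this difference, so it equals LPN against EPN.

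Cd81, which fell under the filter and entered no comparison, had 22 reads in EPN C, or 1.65 CPM, and was at 0 in all 3 SPN libraries, where a count of 0 allowed up to 0.215 to 0.266 CPM. EPN B held 7 reads and EPN A none.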

How the results depend on the processing

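No called change of a member turned its direction under any alternative run. In LPN against SPN, 3 members were called, and leaving out 1 library gave 1 to 5: 5 without SPN A, which added Usp29 and Zrsr1, and 1, Phlda2, without LPN B, SPN B or SPN C. In EPN against SPN, 0 were called, and leaving out 1 library gave 0 to 1, the 1 being Usp29 without SPN A. In LPN against EPN, 1 was called, with 0 without a filter, 0 with edgeR and 3 with DESeq2 (Phlda2, Blcap and Ube3a). Leaving out 1 library gave 0 to 2 there: 0 without LPN A, LPN B, EPN B or EPN C, and 2 without LPN C (with Jade1) or SPN A (with Ube3a). Over all genes, 1309 were called in LPN against SPN, 494 without a filter, 477 with edgeR and 1890 with DESeq2. With only the 6 libraries 659 were called there, and with 1 library left out 96 to 2733. In EPN against SPN 16 were called, 0 with edgeR, 116 with DESeq2 and 0 to 451 with 1 library left out; in LPN against EPN 228, 17, 935 and 4 to 762. The cause of these differences was not tested.

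The labels do not say whether letters A, B and C pair the libraries, and the values do not settle it. Deviations of same-letter libraries correlated at -0.0239 to 0.092 over 9 pairs, and those of other pairs at -0.0996 to 0.096, so the ranges overlap. The replicate block gave 4 calls in LPN against SPN (adding Zrsr1, adjusted p = 0.0405, limma), 1 in LPN against EPN and 0 in EPN against SPN. Over all genes it gave 1644 calls in LPN against SPN, 480 in LPN against EPN and 25 in EPN against SPN, against 1309, 228 and 16 without it.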
